A study of Mus musculus with 40 samples.

Results

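The genes described here are 9 ligands and receptors through which tumor and myeloid cells act on T cells and phagocytes, together with the cytokine interleukin-10. They were chosen by name: Cd274 (PD-L1), Pdcd1lg2 (PD-L2), Cd80, Cd86, Lgals9 (galectin-9), Havcr2 (TIM-3), Pvr (CD155), Cd47, Sirpa (SIRP-alpha) and Il10. All 10 were found among the 45706 genes measured. RNA had been sequenced from 40 libraries of sorted mouse cells, in 10 groups of 4. The tumor-bearing mice carried Cdx2CreERT2 - Apc fl/fl, an inducible Cre recombinase driven by the intestinal Cdx2 promoter together with floxed alleles of the tumor suppressor Apc, with a strain label of C57Bl6/Sv followed by a number that differs in every library. They had received tamoxifen at 25 mg/kg at an age of 8 to 10 weeks. The healthy mice were C57Bl6 animals for which the labels give no transgene and no agent.

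Neutrophils (CD45+ CD11b+ MHCII- Ly6G+ Ly6C-low) and monocytes (CD45+ CD11b+ MHCII- Ly6G- Ly6C-high) were taken from tumors and from the blood of both tumor-bearing and healthy animals. Epithelial cells (EpCAM+ CD45-) and stromal cells (EpCAM- CD45-) came from tumors and from healthy colon. Of the blood libraries, 1 of neutrophils of tumor-bearing mice and 3 of healthy monocytes had been pooled from several animals according to their titles. Counts on genes totaled 10717873 to 38002939 per library, and mitochondrial genes took 5.34% to 83.85% of them, with the highest shares in healthy colon epithelial cells. Levels are given as the deposited RPKM, in which reads are scaled to transcript length and to the mapped reads of a library.

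T cells need a costimulatory signal from CD80 or CD86 through CD28, and the same ligands restrain T cells through CTLA-4. PD-L1 and PD-L2 bind PD-1 and dampen activated T cells, galectin-9 is a ligand of TIM-3, and CD155 binds TIGIT, CD96 and the activating receptor CD226. CD47 binds SIRP-alpha on myeloid cells and restrains phagocytosis, and interleukin-10 dampens antigen presentation and cytokine release by myeloid cells.

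Cd274 (ENSMUSG00000016496) lies on chromosome 19 of mm10 from 29367455 to 29388095, and Pdcd1lg2 (ENSMUSG00000016498) from 29410919 to 29471161, on the same strand and 22823 bases downstream. Cd80 (ENSMUSG00000075122, 38455561 to 38496335), Cd86 (ENSMUSG00000022901, 36603869 to 36666081) and Cd47 (ENSMUSG00000055447, 49800533 to 49915010) lie on chromosome 16, and Lgals9 (ENSMUSG00000001123) and Havcr2 (ENSMUSG00000020399) on chromosome 11. Pvr (ENSMUSG00000040511), Sirpa (ENSMUSG00000037902) and Il10 (ENSMUSG00000016529) lie on chromosomes 7, 2 and 1. Annotated antisense transcripts overlap Cd274, Pdcd1lg2 and Pvr, and whether strand was used in counting is not given in the sources used here, so reads of these genes and their antisense partners cannot be told apart. RefSeq promoters of build GRCm38.p6 were matched for 6 of the 10 genes. The 250 bases before the start are shown for the neighbours Cd274 and Pdcd1lg2, whose levels were far apart, and for Cd80, which rose with Cd274 in both myeloid cell types (chr19:29367188-29367437, chr19:29410669-29410918 and chr16:38458683-38458932, all on the plus strand, 5′ to 3′). Capitals mark a match to any of 3 motifs searched on both strands, the interferon-stimulated response element (GAAA, any 2 bases, then GAAA), the gamma-activated site (TTCNNNGAA) and the AP-1 site (TGANTCA).
Cd274: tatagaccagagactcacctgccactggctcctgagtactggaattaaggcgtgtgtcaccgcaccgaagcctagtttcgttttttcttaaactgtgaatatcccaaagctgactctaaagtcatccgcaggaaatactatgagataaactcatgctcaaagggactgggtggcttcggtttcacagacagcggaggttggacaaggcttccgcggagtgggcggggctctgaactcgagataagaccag
Pdcd1lg2: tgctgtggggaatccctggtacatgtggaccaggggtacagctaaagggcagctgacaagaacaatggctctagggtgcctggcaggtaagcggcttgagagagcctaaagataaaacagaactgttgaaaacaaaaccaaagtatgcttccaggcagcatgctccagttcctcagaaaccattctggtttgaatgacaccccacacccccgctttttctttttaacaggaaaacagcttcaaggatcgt
Cd80: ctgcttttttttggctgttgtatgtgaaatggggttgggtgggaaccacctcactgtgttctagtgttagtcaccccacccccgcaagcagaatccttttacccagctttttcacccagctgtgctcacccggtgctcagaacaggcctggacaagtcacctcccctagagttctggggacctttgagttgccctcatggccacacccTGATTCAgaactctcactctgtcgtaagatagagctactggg
The windows of Cd274 and Pdcd1lg2 held none of these letters, and that of Cd80 held an AP-1 match whose first base is at -42. The Cd80 window lies inside the span given above for the gene, so this position is counted from a RefSeq start downstream of the annotated beginning. An AP-1 match also stood in the window of Havcr2, at -200, and an interferon-stimulated response element in that of Lgals9, at -55. Of 32851 windows of this length, 2.98% held the interferon-stimulated response element, 7.02% the gamma-activated site and 6.75% the AP-1 site.

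The sorted cells were checked against marker genes. Summed over 8 epithelial markers, blood neutrophils and monocytes had at most 0.647 RPKM, while tumor neutrophils had 146.8 RPKM in library 1 and 11.9 to 34.0 RPKM in the others, and tumor epithelial cells had 143.5 to 350.9 RPKM. Tumor stromal libraries 1 and 2 stood apart from libraries 3 and 4. They had 220.9 and 128.0 RPKM of epithelial markers and 4.39 and 3.74 RPKM of 5 endothelial markers, against 47.4 and 25.7 RPKM and 111.4 and 121.0 RPKM in libraries 3 and 4. Summed over 7 fibroblast markers, tumor stromal cells had 6.03 to 24.1 RPKM and healthy colon stromal cells 359.5 to 2017 RPKM. The 4 MHC class II genes summed to 13.5 to 607.4 RPKM in blood monocytes of tumor-bearing mice and 113.6 to 348.9 RPKM in tumor monocytes, although both gates excluded MHCII+ cells. In all of these bulk libraries, fewer cells of a type and less RNA per cell cannot be told apart.

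Cd274 was low in blood neutrophils of tumor-bearing mice and high in tumor neutrophils. It was at 17.9, 14.3, 29.2 and 49.8 RPKM in neutrophils from healthy blood. In blood of tumor-bearing mice it was at 2.21, 1.17, 3.79 and 4.46 RPKM. In tumors it was at 50.3, 99.6, 47.9 and 42.1 RPKM. The 4 libraries from blood of tumor-bearing mice were thus below every library of both other groups, while the healthy blood and tumor libraries overlapped. Monocytes held less Cd274 in blood, at 4.61, 5.21, 2.56 and 2.69 RPKM in healthy mice and 1.00, 1.00, 1.21 and 1.15 RPKM in tumor-bearing mice. Tumor monocytes had 93.9, 26.0, 23.3 and 32.9 RPKM, with library 1 far above the rest. No library of tumor monocytes overlapped with blood. Epithelial cells had at most 0.827 RPKM of Cd274, and healthy colon stromal cells 6.0 to 15.2 RPKM.

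In order of group means, Cd274 was highest in tumor neutrophils (60.0 ± 26.7 RPKM, SD, n = 4), followed by tumor monocytes (44.0 ± 33.5), healthy blood neutrophils (27.8 ± 15.9), tumor stromal cells (14.3 ± 15.2) and healthy colon stromal cells (11.5 ± 3.90). These neighbours overlapped in range. The ranges separated only below healthy colon stromal cells and below blood monocytes of tumor-bearing mice. Over the 10 genes, 14 of 90 neighbouring pairs of groups did not overlap. The share over all genes was not computed, so whether this is many or few is not known. Pdcd1lg2, the other ligand of PD-1, did not exceed 2.81 RPKM in any library, was above 1 RPKM in 4 of 40, and had 3 counts or fewer in 15.

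Cd80 followed a similar order. It was at 15.2, 58.4, 50.9 and 39.9 RPKM in tumor neutrophils and at 29.3, 28.8, 47.2 and 49.8 RPKM in tumor monocytes. These groups overlapped with each other and lay above all others. Healthy blood neutrophils followed with 5.34 to 10.2 RPKM, and then blood neutrophils of tumor-bearing mice with 1.69 to 4.21 RPKM. Cd86 was instead a gene of tumor monocytes, with 21.8, 17.5, 25.1 and 18.3 RPKM there and at most 3.08 RPKM in any library of the other groups. Tumor neutrophils had 0.951, 0.123, 1.88 and 1.75 RPKM of Cd86.

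Havcr2 was also highest in tumor monocytes, at 33.1, 27.1, 32.8 and 42.8 RPKM, above healthy blood monocytes (9.89, 4.58, 6.14 and 4.19 RPKM) and blood monocytes of tumor-bearing mice (2.75, 0.919, 2.61 and 2.84 RPKM). In neutrophils it reached at most 2.13 RPKM. Its ligand Lgals9 was measured in every group, with means between 10.9 ± 3.88 RPKM in tumor epithelial cells and 35.4 ± 7.79 RPKM in healthy blood monocytes, and every neighbouring pair of groups overlapped. Pvr had similar levels in tumor monocytes (6.67 ± 0.938 RPKM), tumor epithelial cells (5.58 ± 1.71), tumor stromal cells (5.55 ± 1.11) and healthy colon stromal cells (4.79 ± 2.71), whose ranges overlapped from each to the next. In blood neutrophils of tumor-bearing mice it was at 0.0189 to 0.0376 RPKM.

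Cd47 and its receptor Sirpa were both abundant in blood myeloid cells. Cd47 was highest in healthy blood monocytes (69.9 ± 14.8 RPKM) and lowest in healthy colon epithelial cells (2.17 ± 1.12). Sirpa ranged from 28.9 to 55.0 RPKM in blood neutrophils and monocytes and from 0.0471 to 8.17 RPKM in epithelial and stromal cells. Il10 was at 5.03, 4.75, 7.0 and 6.98 RPKM in tumor neutrophils and at 3.69, 16.5, 4.24 and 5.03 RPKM in tumor monocytes. In all other libraries it was at most 3.51 RPKM, a value set by 1 library of healthy blood monocytes. Blood libraries of tumor-bearing mice held 4 to 18 counts of Il10 in neutrophils and 3 to 136 in monocytes.

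**Figure D1:**
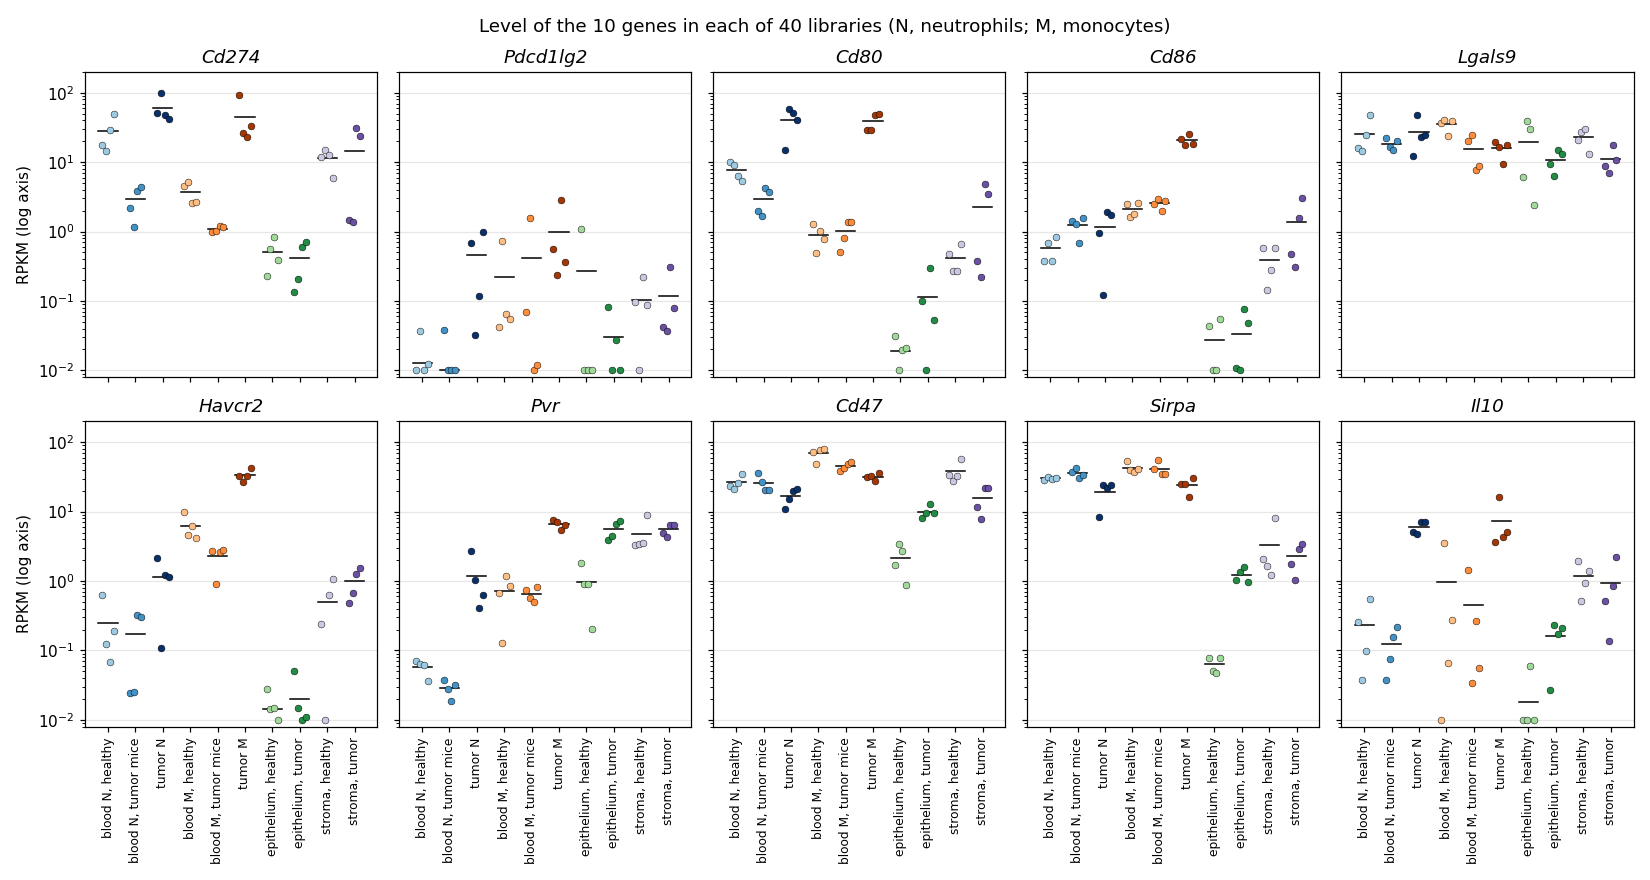
Each point is the RPKM of 1 library on a log axis, with values under 0.01 drawn at 0.01, and the bar is the mean of the 4 libraries of a group. Cd274 and Cd80 are high in both tumor neutrophils and tumor monocytes, Cd86 and Havcr2 in tumor monocytes, and Lgals9 has overlapping levels in neighbouring groups.

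Whether the genes differ between tumor and blood was asked first in neutrophils of tumor-bearing mice. Genes are said to rise, fall or be called at a Benjamini-Hochberg adjusted p under 0.05 over all genes tested and an absolute log2 fold change above 1.5, in edgeR's quasi-likelihood test on the rounded counts. Of the 9 members that passed the filter on low counts, 4 rose in tumor and none fell, beside 16.3% of all 13674 genes called, 11.9% higher and 4.41% lower. On the log2 scale Cd274 rose by 4.56 (standard error 0.67, edgeR, adjusted p = 0.00153). Cd80 rose by 4.00 (0.63, adjusted p = 0.00214). Il10 rose by 5.63 (0.69, adjusted p = 7.7e-04). These 3 genes were called without each library in turn and under every alternative that tested them. MHC class II genes summed to 0.295 to 2.89 RPKM in blood and 21.6 to 36.1 RPKM in tumor neutrophils, dendritic cell markers to 1.51 to 3.13 and 3.46 to 8.18 RPKM, and macrophage markers to 17.1 to 21.9 and 32.7 to 41.7 RPKM, all without overlap. Monocyte markers did overlap, at 11.95 to 20.94 RPKM in blood and 5.919 to 19.14 RPKM in tumor neutrophils. The part of such cells in these rises was not tested. Pvr rose by 5.37 (0.73, adjusted p = 0.0011), from at most 0.0376 RPKM in blood to 2.71, 1.05, 0.413 and 0.625 RPKM in tumors. Its highest value was in tumor neutrophil library 1, which also had the most epithelial markers, and its change was 4.92 when that library was left out (edgeR, adjusted p = 0.00268). Tumor epithelial cells had 3.85 to 7.45 RPKM of Pvr, and the part of epithelial RNA in the rise was not tested. Havcr2 differed by 2.55 (edgeR, adjusted p = 0.119) and was called at 2.85 without tumor neutrophil library 2 (edgeR, adjusted p = 0.0365). Cd86 differed by -0.14, Lgals9 by 0.83, Cd47 by -0.54 and Sirpa by -0.71, none of them called. The median was 2.55 over the members tested and 0.11 over all genes.

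In monocytes, 6 of 10 members rose in tumor and none fell, beside 11.7% of 15280 genes called, 7.76% higher and 3.89% lower. Cd274 rose by 5.60 on the log2 scale (standard error 0.51, adjusted p = 6.0e-05 in edgeR's test) and Cd80 by 5.51 (0.43, adjusted p = 2.4e-05). Havcr2 rose by 4.16 (0.37, edgeR, adjusted p = 4.8e-05), Pvr by 3.60 (0.25, adjusted p = 1.1e-05) and Cd86 by 3.28 (0.25, adjusted p = 2.0e-05). Pvr was at 7.61, 7.11, 5.43 and 6.52 RPKM in tumor monocyte libraries 1 to 4. Epithelial markers summed there to 1.47, 29.9, 14.1 and 10.8 RPKM, and the part of epithelial RNA in the rise of Pvr was not tested. Il10 rose by 4.29 (1.04, edgeR, adjusted p = 0.0174), a call that was lost without tumor monocyte library 2 (adjusted p = 0.0514) and without blood monocyte library 3 (adjusted p = 0.051). Lgals9 differed by 0.31, Cd47 by -0.26 and Sirpa by -0.53, and Pdcd1lg2 by 1.55 with a standard error of 1.49. Without blood monocyte library 2, which held 170 counts of Pdcd1lg2, that gene was called at 5.49 (edgeR, adjusted p = 0.032). Macrophage markers summed to 79.3 to 114.1 RPKM in tumor monocytes and 62.9 to 203.3 RPKM in blood monocytes, and dendritic cell markers to 6.84 to 10.5 and 1.66 to 2.56 RPKM. The part of these cells in the rise of Cd86 and Havcr2 was not tested.

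**Figure D2:**
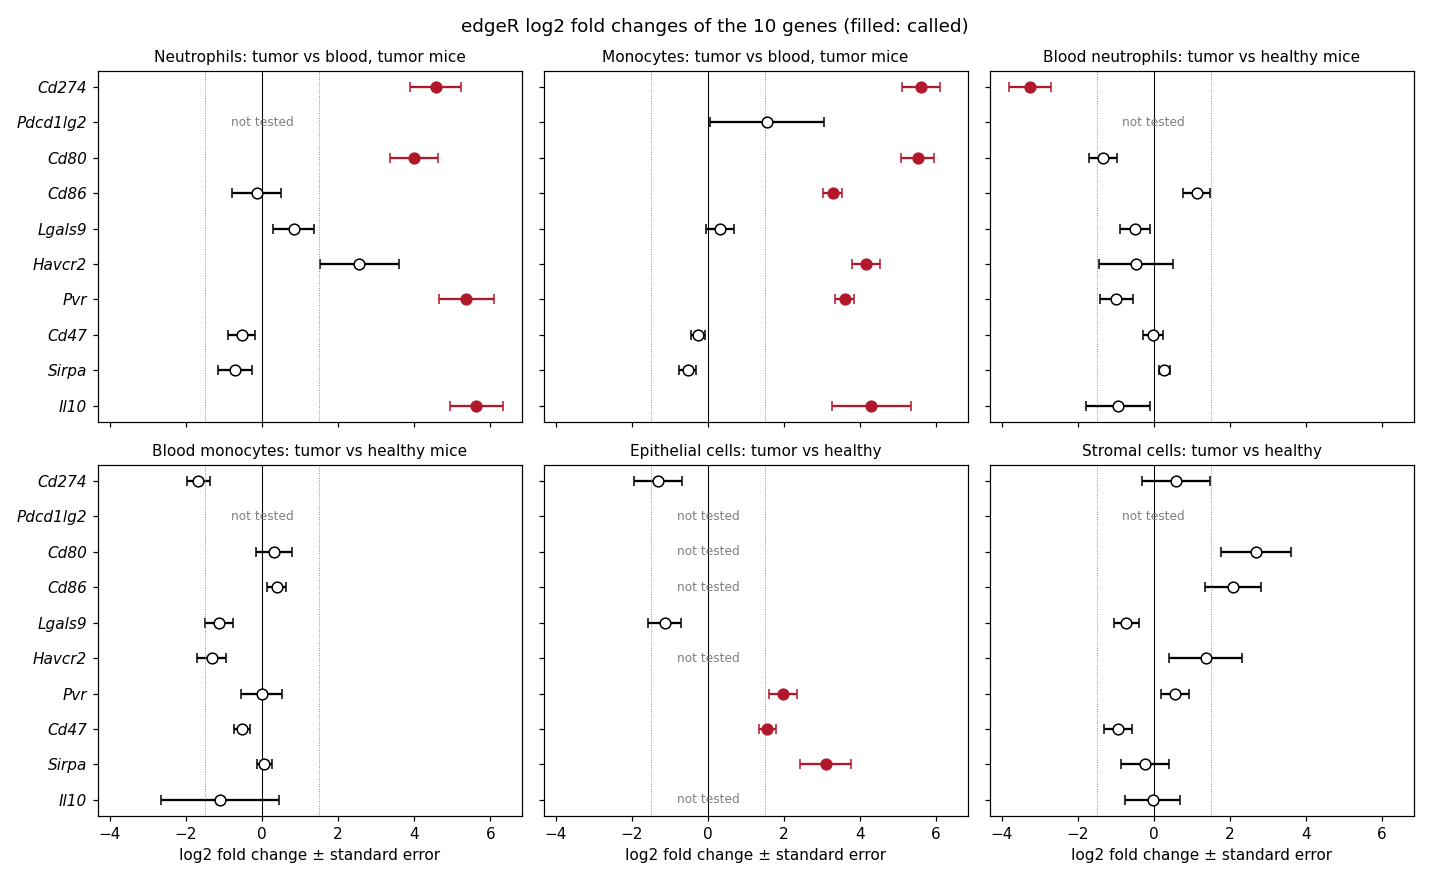
Each panel gives, for 1 comparison, the edgeR log2 fold change of the 10 genes with its standard error, filled where the gene was called, with dotted lines at -1.5 and 1.5. The 4 calls in neutrophils and 6 in monocytes are all higher in tumor, and the call in blood neutrophils is Cd274, lower in tumor-bearing mice.

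An interaction over 16 libraries asked whether neutrophils and monocytes changed unequally from blood to tumor. Of 10 members, 1 was called, beside 3.95% of 17465 genes, 2.73% higher and 1.23% lower. Cd86 changed less in neutrophils than in monocytes, by -3.54 on the log2 scale (standard error 0.69, edgeR, adjusted p = 0.00936), and was called without each library in turn. By title the libraries came in part from the same animals, and with the animal as a block, a choice made after seeing the data, the difference for Cd86 was -3.72 and not called (edgeR, adjusted p = 0.0632). For Cd274 the difference was -1.16 (0.76, adjusted p = 0.408), for Cd80 -1.62 (0.72, adjusted p = 0.21), for Havcr2 -1.72 (1.01, adjusted p = 0.351) and for Il10 1.24 (1.20, adjusted p = 0.602). A difference for these genes was thus not detected in this fit, with standard errors that leave room for one. Havcr2 was called under 1 of 9 alternatives. Pvr differed by 1.61 (0.62, edgeR, adjusted p = 0.144), Pdcd1lg2 by 3.47 (2.21, adjusted p = 0.394), Lgals9 by 0.41, Cd47 by -0.40 and Sirpa by -0.29.

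Among 44 other genes of the same pathways, 30 were tested in neutrophils, of which 8 rose and 2 fell in tumor, with a median log2 fold change of 0.31 beside 0.11 over all genes. The largest rises were of Cmtm4, a stabiliser of PD-L1 protein (8.23, standard error 0.98, edgeR, adjusted p = 7.5e-04), and the nectins Nectin2 (6.58, 1.45, adjusted p = 0.011) and Nectin3 (6.02, 0.93, adjusted p = 0.00199). These were at 2.43 ± 0.859, 3.47 ± 0.893 and 0.834 ± 0.262 RPKM in tumor epithelial cells and at 0.723 ± 0.802, 2.29 ± 3.18 and 0.259 ± 0.279 RPKM in tumor neutrophils, where epithelial markers were also present. The part of epithelial RNA was not tested. Cd200r1, the inhibitory receptor for CD200, fell by 4.39 on the log2 scale and Vsir, which encodes the checkpoint protein VISTA, fell by 1.95 (edgeR, adjusted p = 0.00193 and 0.0216). In monocytes, 5 of 32 rose and 3 fell, with a median of 0.41 beside -0.03 over all genes. Thbs1, which encodes thrombospondin-1, a ligand of CD47, rose most, by 5.81 (0.47, edgeR, adjusted p = 2.6e-05), from 5.27 ± 2.65 to 248 ± 114 RPKM. Socs3, a feedback inhibitor of cytokine signalling, rose by 2.34 and the kinase gene Jak2 by 2.05, while Cd226 fell by 3.55 and Tyk2 and Btla each fell by 1.58. In the interaction 4 of 35 pathway genes were called, with Cmtm4 (7.44) and the receptor gene Il10ra (2.07) more positive in neutrophils and Cd200r1 (-3.97) and Socs3 (-2.29) more negative.

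Blood neutrophils of tumor-bearing mice were then compared with those of healthy mice. These groups also differed in strain label, transgene and tamoxifen, which cannot be told apart from the tumor. Of 9 members tested, 1 fell and none rose, beside 4.01% of 13360 genes called, 1.79% higher and 2.22% lower. Cd274 fell by 3.25 on the log2 scale (standard error 0.56, edgeR, adjusted p = 0.00964), and was called without each library in turn (adjusted p from 0.0107 to 0.0417). Cd80 differed by -1.33 (0.36, adjusted p = 0.0543) and was called at -1.61 without library 3 of tumor-bearing mice (edgeR, adjusted p = 0.0288). Cd86 differed by 1.13 (0.36, adjusted p = 0.0895) and Pvr by -0.98 (0.43, adjusted p = 0.217), and Lgals9 by -0.49, Havcr2 by -0.46, Cd47 by -0.02, Sirpa by 0.28 and Il10 by -0.94. Dendritic cell markers summed to 7.03 to 9.87 RPKM in healthy mice and 1.51 to 3.13 RPKM in tumor-bearing mice, and neutrophil markers to 3733 to 8561 and 15350 to 20030 RPKM, both without overlap. Their part in the fall of Cd274 was not tested. The comparisons of blood with tumor and with healthy blood share the same 4 blood libraries.

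In blood monocytes, none of 9 members was called by edgeR, beside 0.209% of 15313 genes called (0.0914% higher and 0.118% lower). Cd274, Lgals9, Havcr2 and Cd47 had an unadjusted p under 0.05. The share of all genes at that unadjusted p is not given here, so whether 4 of 9 is many or few is not known. Cd274 had no overlap between its groups and differed by -1.68 (0.30, edgeR, adjusted p = 0.0638), and it was called by DESeq2, with at least 10 counts required in every library, and without healthy library 3 (-1.84, edgeR, adjusted p = 0.0488). No other member was called under any alternative. Havcr2 differed by -1.33, Lgals9 by -1.13, Il10 by -1.11, Cd47 by -0.52, Cd86 by 0.38, Cd80 by 0.31, Sirpa by 0.06 and Pvr by -0.01. None of the 32 pathway genes was called.

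Between blood neutrophils and blood monocytes of tumor-bearing mice, 4 of 9 members were called, beside 38% of 14462 genes, 15.1% higher and 23% lower. Cd274 was higher in neutrophils by 2.17 on the log2 scale (0.42, edgeR, adjusted p = 0.00168) and Cd80 by 2.25 (0.49, adjusted p = 0.00299), while Havcr2 (-2.97, 0.86, adjusted p = 0.0141) and Pvr (-3.77, 0.43, adjusted p = 6.1e-05) were lower. The share called was thus near that of all genes. By title, 3 animals gave libraries to both groups, 1 of them through a pooled library, and with the animal as a block, a choice made after seeing the data, these 4 and Lgals9 (1.54, edgeR, adjusted p = 0.00849) were called. Cd86 differed by -0.34 and Il10 by -1.06. Lgals9 and Sirpa, at 1.02 and 0.51, passed the adjusted p but not the fold threshold. The adjusted p was passed by 51.2% of all genes, a share that includes genes past the fold threshold. For Sirpa the sign depended on the scaling, since on log2(RPKM + 1) it was -0.19. Cd47 was at 20.5 to 36.5 RPKM in neutrophils and 38.3 to 51.2 RPKM in monocytes, without overlap, but differed by only -0.09 after TMM scaling. On log2(RPKM + 1) the median of all genes was -0.25, against -0.12 after TMM. Among 29 pathway genes, 6 were higher in neutrophils, led by Cmtm6, another stabiliser of PD-L1 protein (2.68), Socs3 (2.15) and Il10rb (1.80), and 6 were lower, led by the costimulatory receptor gene Cd40 (-5.49), Nectin1 (-5.39) and Cmtm4 (-5.29).

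Among the cells of the tumor, contrasts were taken over 16 libraries that came in part from the same animals, so each was also fitted with the animal of the library title as a block. Shares of all genes called are those of the fits without the block and with all libraries. Between tumor neutrophils and tumor monocytes, 4 of 10 members were called, beside 13.8% of 19026 genes, 9.82% higher and 4% lower. Havcr2 was lower in neutrophils by -4.44 (0.70, edgeR, adjusted p = 0.001), Cd86 by -3.55 (0.86, adjusted p = 0.0127) and Pvr by -2.0 (0.38, adjusted p = 0.00324), and all 3 were called with the animal block. Lgals9 was higher by 1.61 (0.47, adjusted p = 0.0304), but it was called under only 2 of 11 alternatives (DESeq2 and RLE size factors), not with the animal block (edgeR, adjusted p = 0.159) nor without any 1 of 5 libraries, and it was 0.62 without tumor neutrophil library 2. Cd274 differed by 1.19 (0.84, adjusted p = 0.345), Cd80 by 0.88 (0.81, adjusted p = 0.478) and Il10 by 0.39 (0.70, adjusted p = 0.731), and Pdcd1lg2 by -0.68, Cd47 by -0.23 and Sirpa by 0.45. Of 37 pathway genes, 8 were higher in neutrophils and 4 lower. The largest were the receptor gene Icos (5.47), Nectin2 (4.91) and Cd200 (4.02), all higher, and Cd40 (-4.61), Nectin1 (-3.66) and Tnfsf9 (-2.75), which encodes 4-1BB ligand.

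Against tumor epithelial cells, all 10 members were called in tumor neutrophils, 9 of them higher, beside 21.6% of 19026 genes called, 17.6% higher and 3.93% lower. The differences were 9.59 for Cd80, 8.24 for Cd274, 6.50 for Havcr2, 6.05 for Il10, 6.0 for Cd86, 4.93 for Sirpa, 4.5 for Pdcd1lg2, 2.39 for Lgals9 and 1.66 for Cd47, the last called under only 5 of 11 alternatives (adjusted p up to 0.0885). Pvr was lower, by -1.52 (0.37, edgeR, adjusted p = 0.00656). With the animal block 9 were called, without Lgals9 (edgeR, adjusted p = 0.0629). Pvr fell under the fold threshold without tumor neutrophil library 3 or 4 or epithelial library 4 (-1.27 to -1.38), Cd47 without tumor neutrophil library 2 (1.21), and Pdcd1lg2 lost its call without tumor neutrophil library 4 or epithelial library 3 or 4 (edgeR, adjusted p from 0.0578 to 0.0678). Tumor monocytes were higher for 8 of 10, beside 29% of genes called, 14.2% higher and 14.9% lower, at 10.94 for Havcr2, 9.55 for Cd86, 8.71 for Cd80, 7.05 for Cd274, 5.66 for Il10, 5.19 for Pdcd1lg2, 4.48 for Sirpa and 1.89 for Cd47, and these 8 were also called with the animal block. Lgals9 (0.78) and Pvr (0.48) were not called there. Tumor epithelial libraries held 1 to 8 counts of Havcr2, 0 to 8 of Pdcd1lg2, 0 to 24 of Cd86, 2 to 28 of Il10 and 1 to 44 of Cd80. None of these genes passed the filter between tumor and healthy epithelial cells, so they were tested here through their counts in other groups. The counts of members called and the sizes of these differences are thus set against a floor in epithelial cells. Pathway genes were higher in neutrophils for 15 of 37 and lower for 3, and higher in monocytes for 16 and lower for 6. The receptor gene Il10ra (9.02 and 8.28) and Vsir (6.78 and 6.49) were among the 3 largest in both.

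Against tumor stromal cells, tumor neutrophils had 5 members higher (Cd80 by 5.30, Sirpa by 4.14, Il10 by 3.63, Cd274 by 3.13 and Lgals9 by 2.40), beside 16.1% of genes called, 12% higher and 4.07% lower. Pdcd1lg2 differed by 2.72, Havcr2 by 0.90, Cd86 by 0.68, Cd47 by 1.05 (edgeR, adjusted p = 0.0447) and Pvr by -1.48 (adjusted p = 0.0107), the last pair under the fold threshold. With the animal block none was called, with edgeR adjusted p of 0.0667 for Sirpa and 0.0848 for Il10. The share of all genes called with the block is not given here, so the loss cannot be read as particular to the members. Tumor monocytes had 5 members higher (Havcr2 by 5.35, Cd80 by 4.42, Cd86 by 4.22, Sirpa by 3.68 and Il10 by 3.24), beside 20.3% of genes called, 6.9% higher and 13.4% lower, and with the animal block 2 were called, Havcr2 (6.54, edgeR, adjusted p = 0.0112) and Sirpa (3.31, adjusted p = 0.041). Pdcd1lg2 differed by 3.40, Cd274 by 1.94, Cd47 by 1.27 (edgeR, adjusted p = 0.0156, under the fold threshold), Lgals9 by 0.79 and Pvr by 0.52. Without tumor stromal libraries 1 and 2, a choice made after seeing the data, 3 members were called in neutrophils (Cd80, Sirpa and Pvr, the last lower) and 4 in monocytes (Cd80, Cd86, Havcr2 and Sirpa). Tumor epithelial cells were lower than stromal cells for Cd274 (-5.11), Cd80 (-4.29), Cd86 (-5.33) and Havcr2 (-5.60), which were 4 of 10 members beside 4.09% of genes called, 0.0105% higher and 4.08% lower. Of these, Cd80, Cd86 and Havcr2 had at most 44, 24 and 8 counts in any tumor epithelial library. Cd80 lost its call without epithelial library 1, 2 or 4 or stromal library 3 (edgeR, adjusted p from 0.0576 to 0.0699). With the animal block Cd274 was not called (-5.73, edgeR, adjusted p = 0.0732) and Il10 was (-3.10, adjusted p = 0.0465, against -2.42 and 0.092 without the block). Pdcd1lg2 differed by -1.78, Sirpa by -0.80, Cd47 by -0.62, Pvr by 0.04 and Lgals9 by 0.01. Of the pathway genes, 17 of 37 were called between neutrophils and stromal cells, 17 between monocytes and stromal cells and 5 between epithelial and stromal cells, among them Il10ra in each.

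In epithelial cells, 3 of 5 members tested rose from healthy colon to tumor, beside 15.4% of 16085 genes called, 7.52% higher and 7.88% lower. Pvr was at 1.83, 0.911, 0.906 and 0.201 RPKM in healthy colon and at 3.85, 4.45, 6.59 and 7.45 RPKM in tumors. Cd47 was at 1.68, 3.42, 2.69 and 0.877 RPKM and at 8.04, 9.49, 12.7 and 9.58 RPKM. Sirpa was at 0.0776, 0.05, 0.0471 and 0.0780 RPKM and at 1.04, 1.35, 1.60 and 0.974 RPKM. All 3 genes were higher in every tumor library than in every healthy library. They are the members called on the same libraries, and the share of all genes without overlap was not computed. Healthy library 4, with the lowest Pvr and Cd47, also had the largest mitochondrial share, at 83.85%. Pvr rose by 1.97 (0.36, edgeR, adjusted p = 0.00289), Cd47 by 1.56 (0.22, adjusted p = 6.9e-04) and Sirpa by 3.09 (0.66, adjusted p = 0.00721). Cd47 passed the adjusted p without each library in turn but was under the fold threshold without tumor library 2 (1.49) and without healthy library 1 (1.44) or 3 (1.46). Sirpa is a gene of myeloid and other cells, and monocyte markers summed to 9.10 to 26.0 RPKM in tumor and 0.451 to 2.02 RPKM in healthy epithelial libraries. Endothelial markers summed to 4.31 to 4.67 RPKM in tumor and 0.0463 to 0.367 RPKM in healthy epithelial libraries, and erythroid markers to 21.9 to 62.9 and 0.494 to 15.8 RPKM. Neutrophil markers were lower in tumor, at 0.924 to 4.44 RPKM against 6.74 to 12.4 RPKM. Macrophage markers (1.33 to 2.90 and 0.811 to 5.42 RPKM) and MHC class II genes (1.54 to 13.8 and 2.71 to 98.7 RPKM) overlapped. The part of other cells in the rises of Sirpa, Cd47 and Pvr was not tested. The median of all genes was -0.01 after TMM scaling and 0.19 on log2(RPKM + 1). Cd274 differed by -1.31 (0.62, adjusted p = 0.169) and Lgals9 by -1.14 (0.43, adjusted p = 0.0829). Of 30 pathway genes, 3 rose (Tnfsf9, 4.67; Vtcn1, which encodes the inhibitory ligand B7-H4, 3.61; Socs3, 3.19) and 3 fell (Ceacam1, a ligand of TIM-3, by 3.68; Tnfrsf14, by 2.68; Ifngr1, by 1.62).

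In stromal cells, edgeR called none of 9 members, beside 8.4% of 19081 genes called (3.39% higher and 5.01% lower). Cd80, Cd86 and Cd47 had an unadjusted p under 0.05. How many of all genes reached that unadjusted p is not given here, so 3 of 9 cannot be read against the 8.4%. Cd274 was at 12.1, 15.2, 12.7 and 6.0 RPKM in healthy colon and at 1.45, 1.36, 30.8 and 23.7 RPKM in tumors, so that tumor libraries 1 and 2 lay below every healthy library and 3 and 4 above, and it differed by 0.59 (0.90, edgeR, adjusted p = 0.735). Cd80 divided the same libraries, at 0.371 and 0.223 against 4.89 and 3.45 RPKM, and differed by 2.69 (0.92, edgeR, adjusted p = 0.104). Libraries 3 and 4 also held 1514 and 513.9 RPKM of neutrophil markers, against 41.2 and 8.59 RPKM in libraries 1 and 2, and 8.17 and 12.8 RPKM of T-cell markers against 0.550 and 0.498. The part of these cells in the values of Cd274 and Cd80 was not tested. Without libraries 1 and 2, a choice made after seeing the data, 2 members were called, Cd80 (3.59, edgeR, adjusted p = 0.00713) and Cd86 (2.86, adjusted p = 0.0304). Cd274 then differed by 1.51 (adjusted p = 0.0576). Libraries 1 and 2 had the lowest tumor values of all 3 genes, so these calls follow in part from the choice and are no separate support. The share of all genes called without them is not given here. Cd47 was at 27.6 to 56.8 RPKM in healthy and 7.91 to 22.2 RPKM in tumor stromal libraries, without overlap, and differed by -0.93 (0.37, adjusted p = 0.154). Cd86 differed by 2.09 (0.74, edgeR, adjusted p = 0.116), Havcr2 by 1.36, Lgals9 by -0.72, Pvr by 0.55, Sirpa by -0.23 and Il10 by -0.03. Of 42 pathway genes, 3 rose and 2 fell. Vtcn1 rose most, by 11.48 (1.45, edgeR, adjusted p = 0.01), and was at 2.45 ± 0.843 RPKM in tumor epithelial cells, whose markers were present in tumor stromal libraries. Ptpn6 (2.59) and Ifngr2 (1.99) also rose, while Lag3 fell by 2.51 and Icosl fell by 1.5.

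In an interaction test added after seeing the data, the change from healthy colon to tumor was compared between epithelial and stromal cells. Of 10 members, 2 were called, beside 14.1% of 20901 genes, 6.81% higher and 7.25% lower. Cd47 differed by 2.50 (0.43, edgeR, adjusted p = 0.00123), with every tumor epithelial library above and every tumor stromal library below the healthy libraries of its cell type. Sirpa differed by 3.35 (0.97, edgeR, adjusted p = 0.0295). Pvr differed by 1.42, Il10 by 2.74, Cd274 by -1.87, Cd80 by -1.40, Cd86 by -3.44 (1.52), Havcr2 by -1.30, Pdcd1lg2 by -4.21 (2.38) and Lgals9 by -0.42. Il10, Cd80, Cd86, Havcr2 and Pdcd1lg2 did not pass the filter between tumor and healthy epithelial cells, and Pdcd1lg2 not between stromal cells either. Their values here are thus set against a floor in epithelial cells. For Pdcd1lg2, healthy epithelial library 1 held 99 counts and the others 0. By title the tumor libraries of these cell types shared 2 animals and the healthy libraries 1, with no block fitted. Without tumor stromal libraries 1 and 2 the values were 2.11 for Cd47 and 2.98 for Sirpa (edgeR, adjusted p = 0.00422 and 0.106), and Cd274 was called at -2.76 (adjusted p = 0.0359). Those libraries had the lowest Cd274 of the tumor stromal cells, so this call is no separate support.

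**Figure D3:**
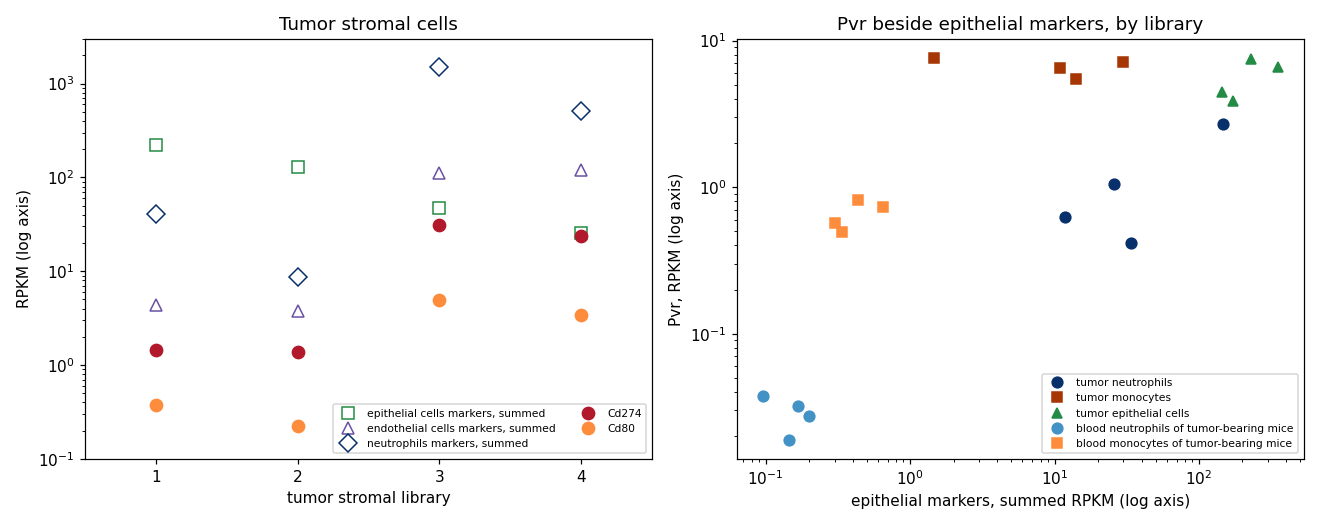
On the left, RPKM of Cd274 and Cd80 and the summed RPKM of 3 marker lists are drawn for each tumor stromal library, and on the right Pvr is drawn against summed epithelial markers for 20 libraries, all on log axes. Cd274 is low in stromal libraries 1 and 2, where endothelial markers are low and epithelial markers high, and the tumor neutrophil library with 2.71 RPKM of Pvr has the most epithelial markers of that group.

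The genes whose group means were most like those of each member were found by Pearson's r of mean log2(RPKM + 1) over the 10 groups, among 13900 genes, as a description without a test. For Cd274 they were D16Ertd472e (0.96), Pde4b (0.955), which encodes a phosphodiesterase, and Ptgs2 (0.935), which encodes cyclooxygenase-2. For Cd80 they were Clec4n (0.987), which encodes the receptor dectin-2, Mthfsl (0.986) and Mthfs (0.979), and for Il10 Traf1 (0.987), Serpinb2 (0.98) and Nfkbie (0.973). Runx3, which encodes a transcription factor, was among the first 3 for both Cd86 (0.977) and Havcr2 (0.973). Among the members themselves, Cd86 and Havcr2 had an r of 0.95, Cd274 and Cd80 of 0.87, and Cd274 and Pdcd1lg2 of 0.459. With 10 groups and libraries that share depth and composition, high values of r are common to many genes.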

How the data were processed

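RNA of sorted cells had been amplified (NuGEN Ovation) and made into TruSeq Nano libraries. The authors mapped reads to mm10, with Bowtie 2 cited, and deposited expected counts and RPKM values for 45706 genes, with symbols matched here for 45143 from GENCODE M21. The annotation used and the treatment of multiply mapped reads are not given in the sources used here. Expected counts (99.6% of nonzero values not whole) were rounded. Totals of 10717873 to 38002939 counts per library limit the precision for genes at a few counts. Levels are the deposited RPKM. Tests used edgeR 4.0.16 (TMM, filterByExpr, robust quasi-likelihood fits, R 4.3.3) on the libraries of each comparison, with Benjamini-Hochberg adjustment over all genes tested. Alternatives were limma-voom (limma 3.58.1, named by the study), DESeq2 1.42.0, size factors by RLE, an unfiltered gene set, a minimum of 10 counts in each library, all 40 libraries in 1 fit, limma on log2(RPKM + 1) or log2(RPKM + 0.1), no mitochondrial genes, calls by the adjusted p without a fold threshold, blocks for replicate number and animal, and each library left out. Models were tested on simulated data. Every member that passed the filter is named in each comparison. Other pathway genes named were taken from the 3 called with the largest change in each direction, and any beyond these were chosen after their values were seen. For each member the 3 genes most like it were searched. The pathway genes of blood neutrophils between tumor-bearing and healthy mice are not reported here. Members and lists were chosen with earlier results of these data known. Where nothing says that replicates came from separate animals, p-values measure only the spread between these samples. Replicates were not duplicates, as their 60 pairs differed by 21.47 to 852.4 times counting error. By title, groups of tumor-bearing mice share animals. Tumor and blood of 1 cell type share only 1, so that no animal block was fitted there.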

Additional observations from a re-analysis of the deposited data

Results flagged for a closer look

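Over the 100 sets of 4 libraries, 16 held a library that stood apart by Dixon's 95% criterion, which compares its gap to the nearest other with the whole range. For normally distributed values chance gives about 1 in 20 sets. RPKM values need not be normal and sets near the floor were included, so the 16 cannot be set against that rate. Cd274 was at 99.6 RPKM in tumor neutrophil library 2, against 42.1 to 50.3 RPKM in the others, and at 93.9 RPKM in tumor monocyte library 1, against 23.3 to 32.9 RPKM. Il10 was at 16.5 RPKM in tumor monocyte library 2, against 3.69 to 5.03 RPKM, at 3.51 RPKM in a library of healthy blood monocytes, at 1.46 RPKM in a library of blood monocytes of tumor-bearing mice and at 0.06 RPKM in a healthy colon epithelial library.

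For Pdcd1lg2 the high library was at 0.0379 RPKM in blood neutrophils and 1.58 RPKM in blood monocytes of tumor-bearing mice, 0.731 RPKM in healthy blood monocytes, 2.81 RPKM in tumor monocytes, 1.09 RPKM in healthy colon epithelial cells and 0.311 RPKM in tumor stromal cells. Healthy colon stromal library 4 was high for both Pvr (8.86 RPKM, against 3.27 to 3.57) and Sirpa (8.17 RPKM, against 1.24 to 2.07), and it also had the most fibroblast markers of its group, at 2017 RPKM against 359.5 to 654.0. Low values stood apart for Sirpa in tumor neutrophil library 1 (8.37 RPKM, against 21.6 to 23.9), the library with 146.8 RPKM of epithelial markers, and for Havcr2 in blood monocyte library 2 of tumor-bearing mice (0.919 RPKM, against 2.61 to 2.84).

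Cd86 changed differently from blood to tumor in neutrophils and monocytes, by -3.54 (edgeR interaction, adjusted p = 0.00936), but not past the threshold with the animal as a block (-3.72, adjusted p = 0.0632). The change from healthy colon to tumor differed between epithelial and stromal cells for Cd47, by 2.50, and for Sirpa, by 3.35 on the log2 scale (edgeR interaction, adjusted p = 0.00123 and 0.0295), the latter not without tumor stromal libraries 1 and 2 (adjusted p = 0.106).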

How the results depend on the processing

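No member that was called changed sign under any alternative. Of 600 values of called genes under other settings, 543 kept the call and 57 lost it, and of 798 values of genes not called, 31 gained one. With a library left out, 24 of 736 lost a call and 15 of 864 gained one. Counts of members called moved by over 1.5 times as follows, and the cause was not tested. The shares of all genes called under these settings are not given here, so the moves cannot be read as particular to the members. With at least 10 counts in every library they were 2 for tumor against blood neutrophils, 1 for blood monocytes, 2 for blood neutrophils against monocytes, 1 for tumor neutrophils against monocytes, 4 and 3 for tumor neutrophils and monocytes against epithelial cells, 1 for tumor monocytes against stromal cells and 1 for epithelial against stromal cells, partly because low members were not tested. DESeq2 called 1 in blood monocytes and 2 in stromal cells, and limma-voom 2 between epithelial and stromal cells. On log2(RPKM + 1), 0 were called between blood neutrophils and monocytes, 2 in the interaction, 5 for tumor neutrophils against epithelial cells and 0 for epithelial against stromal cells, and on log2(RPKM + 0.1), 2 between blood neutrophils and monocytes. All 40 libraries in 1 fit gave 1 in stromal cells. Without tumor stromal libraries 1 and 2 there were 2 in stromal cells and 3 for tumor neutrophils against stromal cells. With the animal as a block there were 0 in the interaction of neutrophils and monocytes (added after seeing the data), 0 for tumor neutrophils and 2 for tumor monocytes against stromal cells.

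Leaving out 1 library gave 1 to 2 calls in blood neutrophils (2 without library 3 of tumor-bearing mice) and 0 to 1 in blood monocytes (1 without healthy library 3). Without tumor neutrophil library 2, Cd274 (2.18, edgeR, adjusted p = 0.107) lost its call against stromal cells, and Lgals9 was 1.33 against epithelial and 1.37 against stromal cells. Pdcd1lg2 was called between tumor monocytes and stromal cells without any 1 of 6 libraries (edgeR, adjusted p from 0.0322 to 0.0472, against 0.0516 with all), Pvr between tumor neutrophils and stromal cells without any 1 of 4 (-1.53 to -1.9), and Il10 between epithelial and stromal cells without stromal library 2 (-2.75, adjusted p = 0.0284). With the replicate number as a block, counts of calls were 4 and 6 for tumor against blood neutrophils and monocytes, the same as without it. The block moved only Lgals9 between tumor neutrophils and monocytes (1.47, edgeR, adjusted p = 0.0917) and Pvr between tumor neutrophils and stromal cells (-1.59, adjusted p = 0.0181) across the threshold. Correlations of same-numbered libraries ran from -0.265 to 0.322, and in 0 of 19 pairs of groups were all 4 over 0.1, so the correlations give no pairing by number. By title, however, 3 of 4 same-numbered libraries came from 1 animal each between blood neutrophils and monocytes of tumor-bearing mice, between tumor neutrophils and monocytes and between tumor neutrophils and epithelial cells, which is what the animal block follows. Of the 10 members, 7 kept their highest group with TMM-scaled levels, 8 with RPKM rescaled to counts outside mitochondrial genes and 9 with medians, the exceptions being Lgals9, Sirpa and Il10, Pvr and Sirpa, and Il10.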
